A study of Homo sapiens with 1536 samples.

Results

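BardoxoloneMethyl, DimethylFumarate and Parthenolide are small electrophiles that react with cysteine thiols and are known to activate NRF2. They were chosen by name, as 3 of the 180 compounds of a pooled screen, together with every dose and replicate at which they were given. This gave 24 of 1536 wells and 1440 deposited relative cell numbers. The screen, QMAP-Seq, counts DNA barcodes in a pool of 5 breast cancer cell lines: ZR-75-1, which expresses the estrogen receptor (ER+), SKBR3, which overexpresses HER2, and and BT-20, HCC-38 and MDA-MB-231, which are triple-negative. Each line carried 12 sgRNAs, 11 of them against 1 gene each and the other, sgNT, a sum over 5 non-targeting guides, so that a well held 60 cell line-sgRNA pairs. All wells, those with the solvent DMSO included, held cells with doxycycline-inducible Cas9 grown in 100 ng/mL doxycycline for 7 days, and were then treated for 72 h. The 3 compounds were each given at 10, 100, 1000 and 10000 nM in 2 replicate wells per dose, and the controls were 96 DMSO wells. The knockouts are cell populations and not clones, all lines share the medium of 1 well, and both replicate wells of a dose were filled from the same diluted compound plate, so p-values measure the spread between wells treated in parallel. In ZR-75-1 sgHSF1 and sgKEAP1 are left out, as in the methods of the study, so that KEAP1 is described in 4 lines.

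KEAP1 is the substrate adaptor of a CUL3 ubiquitin ligase that holds the transcription factor NRF2 (gene NFE2L2) at a low level. Electrophiles modify reactive cysteines of KEAP1, NRF2 then escapes degradation, and genes for glutathione synthesis, NADPH supply and quinone reduction are induced. Bardoxolone methyl is a semi-synthetic triterpenoid with a cyano enone, dimethyl fumarate is the methyl diester of fumaric acid, and parthenolide is a sesquiterpene lactone with an α-methylene lactone and an epoxide. At higher doses such compounds also react with other thiol proteins. Cell number was measured here, and NRF2 activity was not. The study describes Western blots of the knockouts in MDA-MB-231 cells. There KEAP1 itself was hard to detect, and NRF2 protein rose in the KEAP1 knockout cells. Loss of the 2 proteins in the other lines was not checked here.

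Both sgRNAs of this pathway are printed because the comparisons of KEAP1 with NFE2L2 rest on them. Each is given 5′ to 3′ as it was counted, and the capitals mark the 10 bases next to the PAM, the stretch in which Cas9 tolerates mismatches least.
sgKEAP1: cagcaccgttCATGACGTGG
sgNFE2L2: cacatccagtCAGAAACCAG
The KEAP1 gene lies on chromosome 19 from 10486125 to 10503356 and NFE2L2 on chromosome 2 from 177230303 to 177264727 (RefSeq, GRCh38.p14). The position of each guide within its gene was not determined here.

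A relative cell number is the cell number of a line-sgRNA pair in a well, read from that well's own standard curve of 5 spiked-in amounts of barcoded human embryonic kidney cells, as a percentage of the median of the 96 DMSO wells. The value of a line is the mean over its sgRNAs. Limma fits against DMSO used only the 24 DMSO wells of the same dose level, on the log2 scale. A fitted level or log2 difference can therefore depart from the printed percentages, which refer to all 96 wells. In the DMSO wells line values ranged from 64.3% to 148.8%, with SDs of 10.6 to 14.3 percentage points (n = 96 wells per line). Reads per well were 45763 to 850865 for BardoxoloneMethyl, 332994 to 1033179 for DimethylFumarate, 283534 to 843784 for Parthenolide and 155067 to 986006 for DMSO. PCR reads carry no molecular identifiers here, and the number of wells limits the precision.

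BardoxoloneMethyl lowered the cell number of all 5 lines, and DimethylFumarate and Parthenolide changed none past the test at any of the 4 doses. With BardoxoloneMethyl, 13 of 20 line-dose combinations were lower than DMSO and none was higher (limma, adjusted p under 0.05 over all compounds, lines and doses). Over all compounds with relative cell numbers, 34.8% of such combinations were lower and 1.61% higher. Of the 5 lines, 0 were lower at 10 nM, 3 at 100 nM, 5 at 1000 nM and 5 at 10000 nM. Over all compounds 16.3% of the combinations at the 2 lower doses and 53.2% at the 2 higher doses were lower, where most compounds, but not all, were given over the range used here.

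At 10 nM BardoxoloneMethyl, replicate 1 and replicate 2 were 90.5% and 91.4% in BT-20, 102.5% and 91.9% in HCC-38, 101.96% and 106.9% in MDA-MB-231, 89.9% and 90.9% in SKBR3, and 83.1% and 92.96% in ZR-75-1. All of them lay within the range of the DMSO wells, and the adjusted p of the 5 lines ranged from 0.183 to 0.965. The 95% intervals of the 5 fitted levels together spanned 70.7% to 117.8% of DMSO.

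At 100 nM the lines separated. ZR-75-1 was at 49.6% and 47.6%, a fitted 50.04% of DMSO (95% interval 40.7% to 61.5%, log2 difference SE 0.15, limma adjusted p = 1.1e-09). SKBR3 was at 72.2% and 54.99% (log2 -0.62, SE 0.11, adjusted p = 1.5e-07), and BT-20 at 85.4% and 72.8% (fitted 82.4%, interval 72.8% to 93.1%, adjusted p = 0.0068). In these 3 lines, and in MDA-MB-231, none of the 96 DMSO wells was below both replicates. HCC-38, at 96.4% and 88.7%, and MDA-MB-231, at 96.5% and 79.9%, did not pass the test (adjusted p = 0.44 and 0.31). Replicate 2 was the lower well in all 5 lines, which share it. The BT-20 call was lost without replicate 2 (log2 -0.16, adjusted p = 0.34). With sgNT alone, a single value in place of the mean over the sgRNAs, none of the 3 lines passed. The log2 differences were -0.72 in ZR-75-1, -0.50 in SKBR3 and -0.45 in BT-20 (limma adjusted p = 0.18 to 0.25).

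At 1000 nM the levels were 20.4% and 20.0% in BT-20, 27.6% and 24.3% in HCC-38, 12.1% and 14.7% in MDA-MB-231, 10.97% and 13.995% in SKBR3, and 17.6% and 15.5% in ZR-75-1. Every well was below the lowest DMSO well, and the fitted log2 differences ran from -2.98 in SKBR3 to -1.95 in HCC-38. Ranks at this dose cover only the compounds given over the dose range used here. Among these, BT-20 had its lowest level with BardoxoloneMethyl, ZR-75-1 its 6th lowest and HCC-38 its 13th lowest. Compounds of the study's lower dose range, which also reached 1000 nM, were not ranked.

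At 10000 nM the replicates were 4.0% and 4.4% in BT-20, 4.6% and 5.4% in HCC-38, 4.0% and 8.0% in MDA-MB-231, 5.2% and 5.5% in SKBR3, and 2.9% and 6.8% in ZR-75-1. The lines overlapped at this dose. The wells held 1281.3 and 1741.1 interpolated cells, against 28608.9 and 28104.8 at 10 nM, and the standards took 61.9% and 60.2% of the reads against 6.61% and 6.48%. Their read totals were 94260 and 76066.

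**Figure D1:**
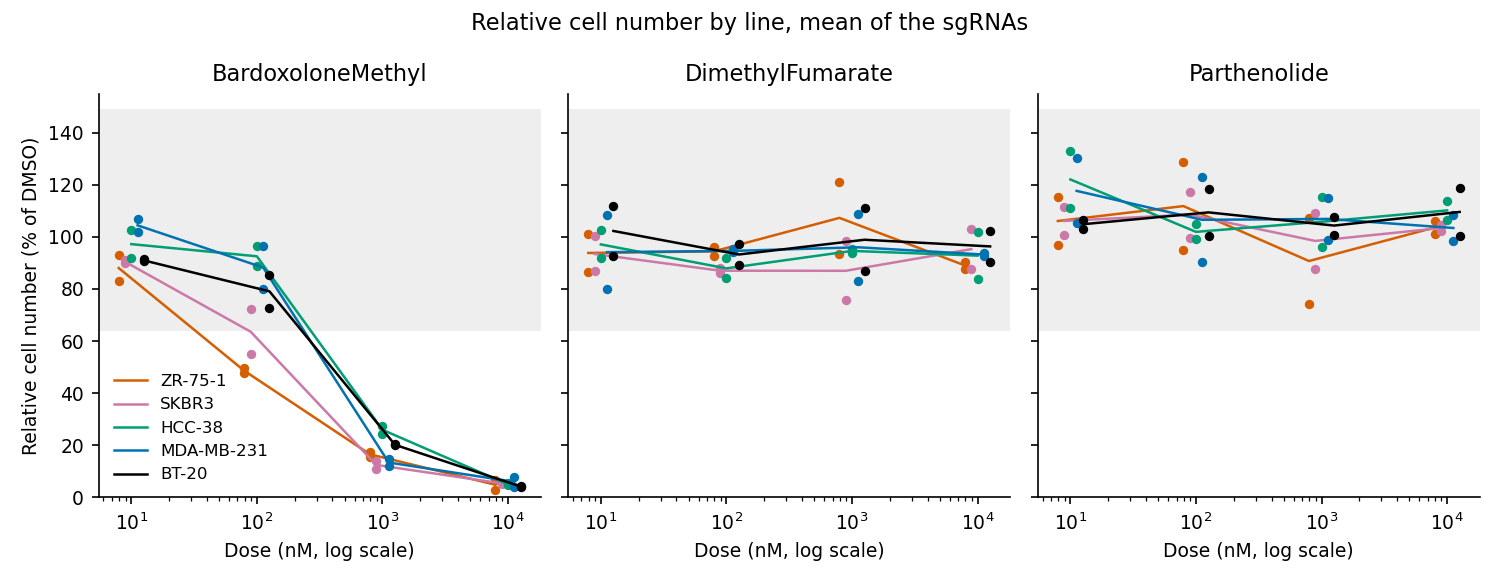
Relative cell number in % of DMSO (y axis) against dose in nM (x axis, log scale) for the 3 compounds. Points are the 2 replicate wells of each line (shifted sideways so that they can be told apart), lines join their means, and the grey band is the full range of the DMSO wells over all lines, 64.3% to 148.8%. With BardoxoloneMethyl every line left the band by 1000 nM, and both replicates of ZR-75-1 and replicate 2 of SKBR3 were already below it at 100 nM, while all points of DimethylFumarate and Parthenolide stayed in it.

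DimethylFumarate gave no line-dose combination past the test (0 of 20, with 1 at an unadjusted p under 0.05, and 0 after adjustment by an exact permutation test against the DMSO wells). Its wells ranged from 75.6% to 121.1% of DMSO. The fitted levels lay below DMSO in 18 of 20 combinations, with a median log2 difference of -0.13. The difference farthest below DMSO was at 10000 nM in ZR-75-1, where the replicates were 87.6% and 90.4%. Against the DMSO wells of that dose level the fitted level was 83.7% (log2 -0.26, SE 0.13, limma adjusted p = 0.11). At that dose the other lines were at 103.03% and 87.5% (SKBR3), 101.9% and 83.7% (HCC-38), 92.5% and 93.9% (MDA-MB-231), and 102.3% and 90.4% (BT-20), so the wells of DimethylFumarate and DMSO overlapped in every line. The 95% intervals of the 20 fitted levels reached from 70.4% to 130.97% of DMSO, so falls and rises within these bounds remain possible. At 10 and at 1000 nM replicate 2 was above replicate 1 in all 5 lines, with means over lines of 104.8% against 87.5% and 106.9% against 86.6%.

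Parthenolide also gave no combination past the test (0 of 20, with 1 at an unadjusted p under 0.05, and 0 by the permutation test after adjustment). Its wells ranged from 74.3% to 133.1%, and the fitted levels lay above DMSO in 17 of 20 combinations with a median log2 difference of 0.05. At 10000 nM the replicates were 100.4% and 118.7% in BT-20, 113.8% and 106.5% in HCC-38, 98.5% and 108.3% in MDA-MB-231, 102.3% and 104.5% in SKBR3, and 101.04% and 106.1% in ZR-75-1. All of them lay within the DMSO range. The difference nearest to the threshold was upward, in BT-20 at 100 nM, with 118.3% and 100.5%. Against the DMSO wells of that dose level the fitted level was 113.9% (log2 0.19, SE 0.09, limma adjusted p = 0.12). The intervals of the 20 fitted levels reached from 78.8% to 142.3% of DMSO. Replicate 1 was the higher well in all 5 lines at 100 nM and the lower one in all 5 at 1000 nM. In the Parthenolide wells 1.18% to 10.4% of the line reads were expected from barcodes swapped between pairs, against 0.785% to 1.05% with BardoxoloneMethyl, 0.940% to 1.30% with DimethylFumarate and 0.732% to 7.91% in DMSO. Subtracting them left the counts of 13, 0 and 0 calls as they were.

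The 3 compounds were then compared with each other at matched doses in the same line, which gave 60 differences with p-values adjusted over these 60. In all, 25 passed (41.7%). BardoxoloneMethyl was below DimethylFumarate in 12 of 20 and below Parthenolide in 13 of 20. At 1000 nM its level was 3.65-fold (HCC-38) to 7.13-fold (MDA-MB-231) below that of DimethylFumarate, and 4.07-fold (HCC-38) to 7.99-fold (MDA-MB-231) below that of Parthenolide. At 10000 nM the same differences were 16.6-fold to 22.9-fold and 18.4-fold to 26.02-fold. The widest 95% interval at this dose, that of ZR-75-1 against Parthenolide, ran from 12.2-fold to 44.4-fold. At 100 nM ZR-75-1 and SKBR3 differed from both of the other compounds, by log2 -0.96 and -0.47 against DimethylFumarate (adjusted p = 2.0e-06 and 0.0036) and by -1.19 and -0.78 against Parthenolide (adjusted p = 2.5e-08 and 1.0e-06). BT-20 differed from Parthenolide (log2 -0.47, adjusted p = 0.00066) and had a log2 difference of -0.24 from DimethylFumarate (adjusted p = 0.10). The SKBR3 difference from DimethylFumarate was lost without replicate 2 (adjusted p = 0.27). At 10 nM none of the 10 differences of BardoxoloneMethyl passed (0 at an unadjusted p under 0.05), with intervals from log2 -0.66 to 0.47. Thus the triterpenoid with the cyano enone differed from the fumarate diester and from the sesquiterpene lactone at the higher doses, and at the lowest dose the test showed no difference within the intervals above.

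Between DimethylFumarate and Parthenolide 0 of 20 differences passed (2 at an unadjusted p under 0.05), and the adjusted p ranged from 0.071 to 0.80. DimethylFumarate had the lower level in 19 of 20 combinations, with log2 differences from -0.33 to 0.25, but the 5 lines of a dose share their wells and are not independent. The exception was ZR-75-1 at 1000 nM, with 93.5% and 121.1% for DimethylFumarate against 74.3% and 107.1% for Parthenolide. The 95% intervals of the 20 differences together ran from log2 -0.66 to 0.58, so differences within that range remain possible, and the values do not show that the 2 compounds act alike.

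**Figure D2:**
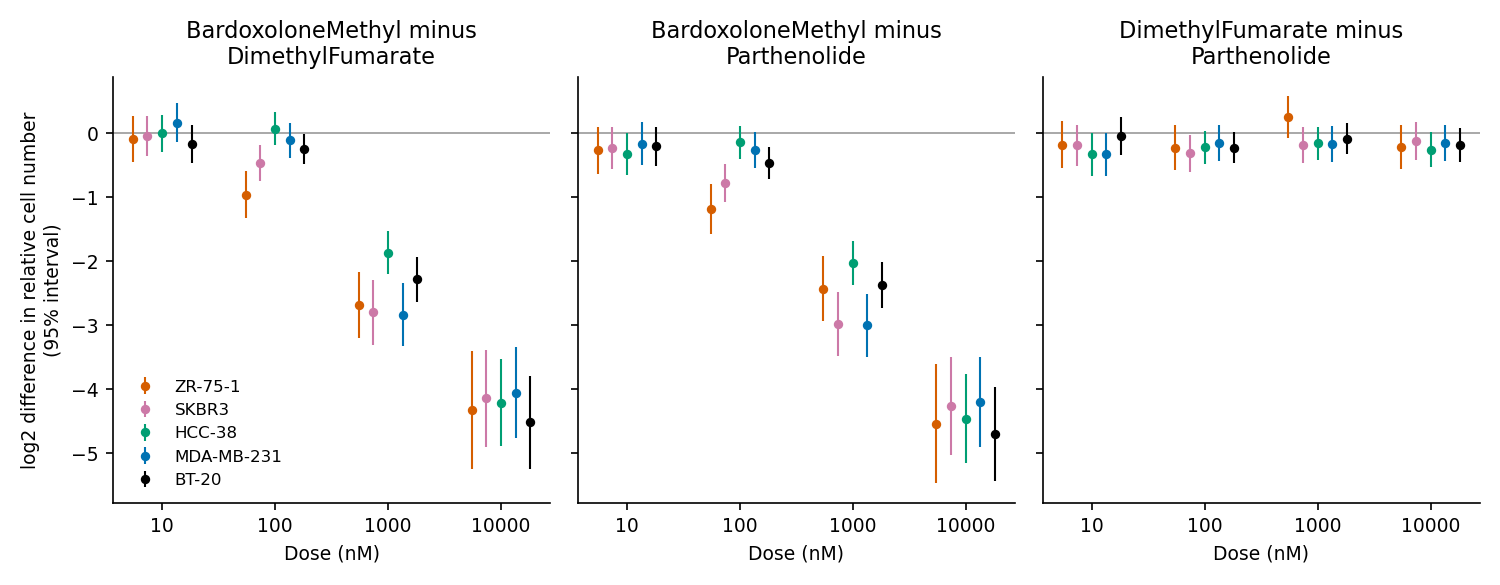
Differences in relative cell number (log2, y axis) between each pair of compounds at the same dose (x axis, nM) in each line, with 95% intervals from limma. The differences of BardoxoloneMethyl from both other compounds were at -1.87 or below at 1000 and 10000 nM, whereas those between DimethylFumarate and Parthenolide lay between -0.33 and 0.25 at every dose.

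The AUC, the area under the curve of level against dose, adds the relative cell numbers of the 4 doses, with a weight of 0.5 for the outer doses, so that an untreated line has an AUC of 300. BardoxoloneMethyl had AUCs of 110.1 and 113.01 in ZR-75-1, 130.8 and 117.2 in SKBR3, 153.03 and 140.7 in BT-20, 161.59 and 152.03 in MDA-MB-231, and 177.55 and 161.64 in HCC-38. In this order the replicates of BT-20 and MDA-MB-231 overlap. Those of the other neighbours do not, although MDA-MB-231 and HCC-38 meet within 0.1 points. Among all compounds with an AUC, BardoxoloneMethyl ranked 12th from the lowest AUC in ZR-75-1 and in BT-20, 24th in SKBR3, 27th in MDA-MB-231 and 29th in HCC-38. Most of these compounds, but not all, were given over the dose range used here, so some of the ranked AUCs cover lower doses. DimethylFumarate had AUCs of 258.3 to 309.6, and Parthenolide had AUCs of 302.02 to 335.8.

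Each line was tested against the mean of the other 4 lines in the same wells. Every line is part of the reference of the others, so a high line lowers the differences of the rest. The 5 differences of a compound are therefore not independent. With BardoxoloneMethyl 2 of 5 lines passed, against 21.7% of all line-compound combinations. ZR-75-1 was lower than the other lines (difference in AUC -37.7, SE 7.497, limma adjusted p = 0.0074), and HCC-38 was higher (34.8, adjusted p = 0.011). SKBR3 differed by -22.2 (adjusted p = 0.064), MDA-MB-231 by 18.8 (adjusted p = 0.11) and BT-20 by 6.37 (adjusted p = 0.63). With the replicate number as a block, which is fitting because all lines of a replicate share 1 well, SKBR3 and MDA-MB-231 passed as well (adjusted p = 0.0096 and 0.021). With sgNT alone the differences of ZR-75-1 and HCC-38 were -37.6 and 54.2, and neither passed (adjusted p = 0.34 and 0.16). With DimethylFumarate and Parthenolide 0 of 5 lines passed (0 at an unadjusted p under 0.05), and the differences ran from -18.2 to 12.8 and from -12.7 to 7.98.

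The dose at which a straight line between neighbouring doses (log scale) crossed 50% of DMSO followed the same order of lines. It was 97.2 and 88.5 nM in ZR-75-1, 230.6 and 132.3 nM in SKBR3, 350.1 and 270.3 nM in BT-20, 355.8 and 287.6 nM in MDA-MB-231, and 472.3 and 399.1 nM in HCC-38. The replicates of BT-20 and MDA-MB-231 overlapped, and those of the other neighbours did not. These values describe 2 wells each and were not tested, and they rest on doses that are 10-fold apart. DimethylFumarate and Parthenolide did not reach 50% in any line.

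The order of the lines was not the same at each dose. This comparison within doses was added after the levels had been seen. As with the AUC, each line is part of the reference of the others, so the 5 differences of a dose are not independent. It passed in 5 of 20 combinations of line and dose for BardoxoloneMethyl, against 16.2% over all compounds. At 100 nM ZR-75-1 was lower than the other 4 lines (log2 -0.71, SE 0.12, limma adjusted p = 0.0039) and HCC-38 higher (0.45, adjusted p = 0.038). At 1000 nM SKBR3 (-0.57, adjusted p = 0.0097) and MDA-MB-231 (-0.44, adjusted p = 0.034) were lower, and HCC-38 was higher (0.76, adjusted p = 0.0023). The difference of ZR-75-1 at that dose was -0.05 (95% interval -0.32 to 0.21), and that of MDA-MB-231 had been 0.35 at 100 nM (adjusted p = 0.097). At 10 and 10000 nM none passed, with 1 at an unadjusted p under 0.05, and the intervals of the 5 lines at 10000 nM together reached from log2 -0.98 in BT-20 to 0.95 in MDA-MB-231. With the replicate block 8 combinations passed, the others being SKBR3 and MDA-MB-231 at 100 nM and BT-20 at 1000 nM, and with sgNT alone none passed. In sgNT alone MDA-MB-231 at 1000 nM was at -0.02 (adjusted p = 0.99), SKBR3 at -1.21 (adjusted p = 0.053) and HCC-38 at 1.09 (adjusted p = 0.087). At 100 nM ZR-75-1 was at -0.57 (adjusted p = 0.41) and HCC-38 at 0.74 (adjusted p = 0.22).

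**Figure D3:**
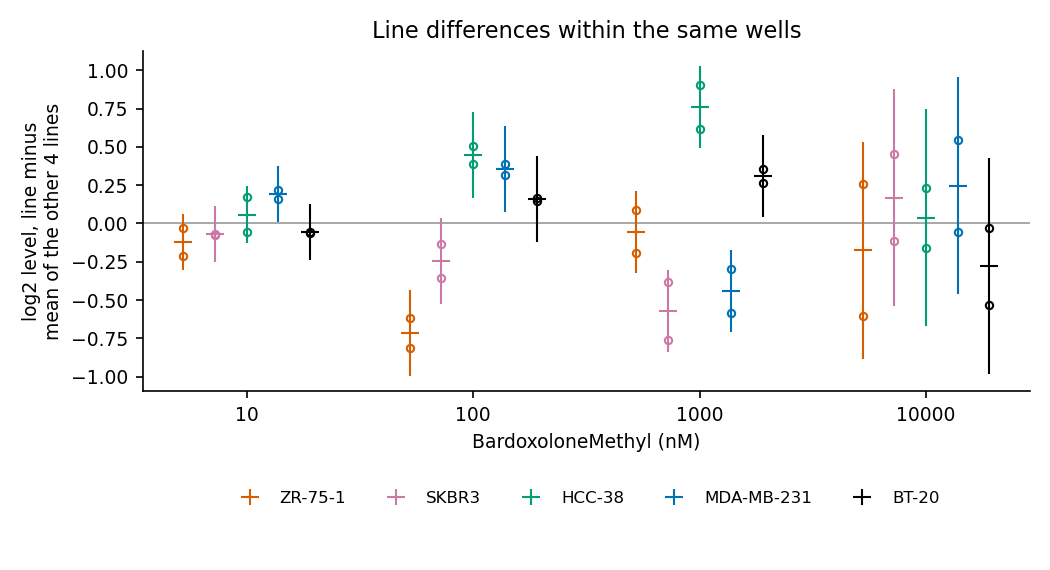
Difference of each line from the mean of the other 4 lines in the same wells (log2, y axis) at each dose of BardoxoloneMethyl (x axis, nM). Open points are the 2 replicates, horizontal marks their mean and vertical bars 95% intervals. ZR-75-1 was lowest at 100 nM (-0.71), SKBR3 and MDA-MB-231 at 1000 nM (-0.57 and -0.44), HCC-38 was highest at 1000 nM (0.76), and the intervals of all lines span 0 at 10000 nM.

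Knockouts were compared with the median AUC of the sgRNAs of the same line and well. For none of the 3 compounds did any of the 58 line-sgRNA pairs pass the test (limma, adjusted over all compounds, where 1.11% passed). At an unadjusted p under 0.05 there were 5 pairs for BardoxoloneMethyl, 2 for DimethylFumarate and 3 for Parthenolide, and edgeR on the reads gave 7, 3 and 0 and likewise 0 after adjustment. The 95% intervals had half-widths of 15.9 to 28.4 AUC points with BardoxoloneMethyl, 23.03 to 56.6 with DimethylFumarate and 26.7 to 56.4 with Parthenolide. They are not adjusted for the number of tests, so larger differences failed as well. Even 55.1 points, for sgNT in MDA-MB-231 under Parthenolide, did not pass (limma adjusted p = 0.34). On simulated data this limma fit missed most of the sgRNAs that had been changed. The simulated pairs were drawn independently, without noise shared within a well. How many changes the fit misses in the measured wells was therefore not determined. Under BardoxoloneMethyl the SD between the sgRNAs of a line, each a mean of 2 replicates, was 8.1 to 12.9 AUC points. The residual SD of single replicates was 14.1 to 20.7. These 2 spreads are not on the same footing, and whether the sgRNAs spread more than replicate noise was not tested.

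Knockout of NFE2L2 is meant to remove the NRF2 protein itself. Under BardoxoloneMethyl its AUC was 121.1 and 124.7 in BT-20 (medians of the line 154.7 and 140.7), 84.7 and 113.7 in ZR-75-1 (112.6 and 118.5), 142.5 and 136.1 in MDA-MB-231 (153.9 and 147.7), 163.99 and 167.6 in HCC-38 (179.9 and 164.04), and 124.7 and 119.8 in SKBR3 (128.5 and 116.7). The mean difference from the median was below 0 in 5 of 5 lines, and both replicates were below it in 3 of them. The lines share their wells, so they are not separate tests of this direction. In BT-20 the control sgNT was equally low, at 117.5 and 125.6, and against sgNT in place of the median sgNFE2L2 differed there by 1.33 AUC points and was below it in 4 of 5 lines, by 0.86 to 11.3 points. In edgeR the difference was below 0 in 4 of 5 lines. None passed the test: the difference farthest from 0 was -24.8 in BT-20 (SE 9.89, limma adjusted p = 0.39, edgeR log2 -0.27 with adjusted p = 0.13), and the others lay between -16.4 and -0.38. In BT-20 the lower value came mainly from 100 nM, where sgNFE2L2 was at 54.9% and 59.9% and the median of the line at 85.7% and 73.4%. That deviation, log2 -0.52 against DMSO wells (SE 0.16), had the lowest p of all sgKEAP1 and sgNFE2L2 values under the 3 compounds (p = 0.0012 in limma) and an adjusted p of 0.44. At 1000 nM in the same line sgNFE2L2 was at 17.005% and 17.5% and the median at 21.9% and 19.2%.

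Knockout of KEAP1 is meant to leave NRF2 without its main restraint. Under BardoxoloneMethyl the AUC of sgKEAP1 was 157.6 and 143.3 in HCC-38, 160.7 and 148.4 in BT-20, 133.03 and 180.9 in MDA-MB-231, and 159.9 and 111.5 in SKBR3. The differences from the line medians were -21.5, 6.85, 6.21 and 13.1 in the same order. Both replicates lay on 1 side of the median in HCC-38 (below) and BT-20 (above), and in SKBR3 and MDA-MB-231 the replicates were on opposite sides. None passed (lowest adjusted p = 0.27, in HCC-38).

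Under DimethylFumarate the sgKEAP1 pair nearest to the threshold was that of HCC-38. Its AUC was 297.99 and 338.4 where the line medians were 274.5 and 277.03 (difference 42.4, SE 10.8, limma adjusted p = 0.084), and edgeR gave a log2 difference of 0.08 (adjusted p = 0.83). By dose, HCC-38 sgKEAP1 was at 87.6% and 130.98%, 116.1% and 108.8%, 93.995% and 107.4%, and 88.2% and 113.5% from 10 to 10000 nM. At 100 nM both replicates lay above the line medians of 80.04% and 93.5%, and at 10 and 10000 nM only replicate 2 was above its median. In the other lines sgKEAP1 differed by -19.6 (SKBR3), -22.7 (MDA-MB-231) and 5.47 (BT-20). For sgNFE2L2 the differences were -19.9 in HCC-38, -6.18 in SKBR3, 1.05 in MDA-MB-231, 20.5 in BT-20 and 31.3 in ZR-75-1, and none passed.

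Under Parthenolide sgKEAP1 had AUCs of 353.7 and 382.9 in MDA-MB-231, which were 24.7 and 69.8 above the line median (mean difference 47.3, SE 20.96, adjusted p = 0.47), but 7.89 below sgNT on average, and of 281.7 and 284.6 in SKBR3, with medians of 309.7 and 311.2 (difference -27.3, adjusted p = 0.62). In HCC-38 and BT-20 it differed by 1.18 and 12.7, and after subtraction of swapped reads by -15.8 and 18.2. The sgNFE2L2 differences lay between -1.98 in MDA-MB-231 and 25.998 in ZR-75-1, and the subtraction turned the sign in HCC-38 (-0.38 to 7.63) and BT-20 (2.40 to -9.96). The directions of sgKEAP1 therefore varied between lines under each of the 3 compounds, and none of its differences from the median passed.

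By dose, 0 of 36 deviations of sgKEAP1 and sgNFE2L2 from the line median passed for each of the 3 compounds (limma), against 0.0718% over all compounds and sgRNAs. At an unadjusted p under 0.05 there were 3 of 36 for BardoxoloneMethyl, 4 of 36 for DimethylFumarate and 4 of 36 for Parthenolide. The fewest reads behind any of these BardoxoloneMethyl values were those of BT-20 sgNFE2L2 at 10000 nM.

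**Figure D4:**
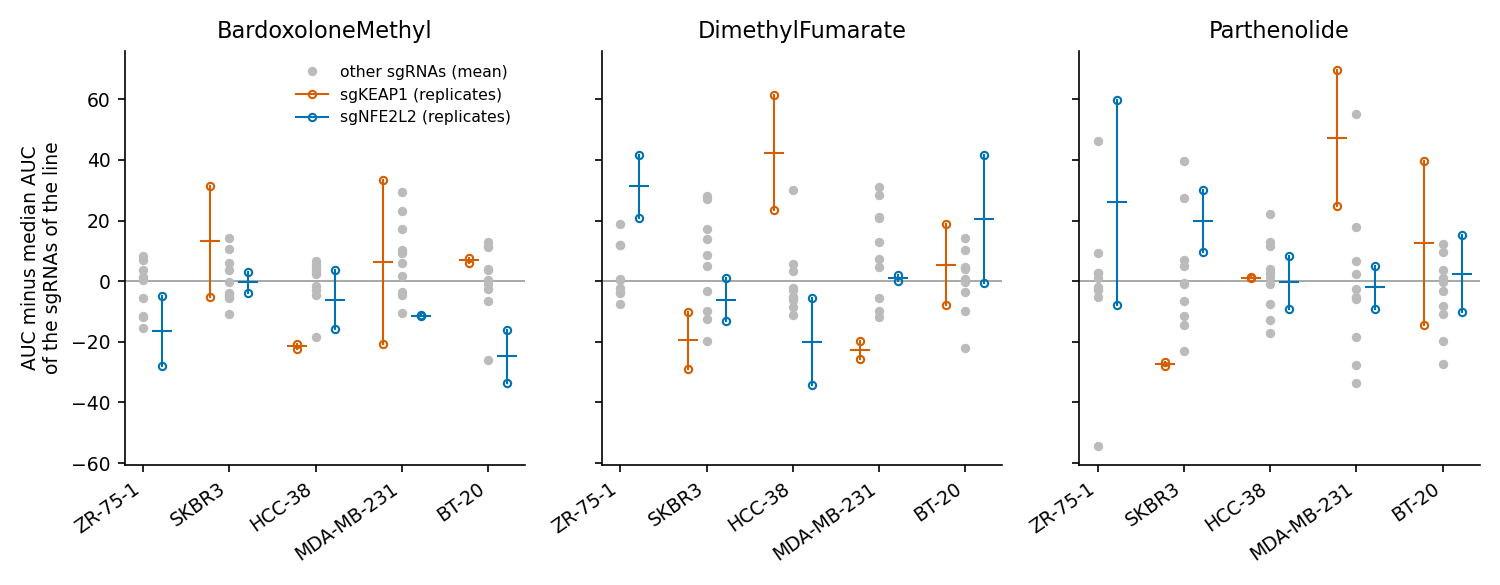
AUC of each sgRNA minus the median AUC of the sgRNAs of its line (y axis) in the 5 lines (x axis) for the 3 compounds. Open points are the 2 replicates of sgKEAP1 (orange, not in ZR-75-1) and sgNFE2L2 (blue), horizontal marks are their means, and grey points are the means of the other sgRNAs. The sgNFE2L2 means under BardoxoloneMethyl are below 0, the line median, in all 5 lines, down to -24.8 in BT-20, and sgKEAP1 in HCC-38 under DimethylFumarate is at 42.4, with no pair past the test.

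The 2 knockouts act on opposite sides of the pathway and were also set against each other in the same wells. In 1 of the 12 combinations of compound and line the difference passed, against 9.01% over all compounds. In HCC-38 under DimethylFumarate, sgKEAP1 had AUCs of 297.99 and 338.4 and sgNFE2L2 of 268.9 and 242.8. The replicate differences were 29.1 and 95.6, with a mean of 62.3 (SE 15.3, limma adjusted p = 0.014), and the replicates of the 2 knockouts did not overlap. Several measured facts stand beside this call. In HCC-38, 24.4% of all compounds passed in the same direction and 0 in the other, and the median difference over all compounds was 23.3 AUC points. HCC-38 sgKEAP1 held 2.05% of the reads of its line and was the most variable of its 12 sgRNAs over the DMSO wells (SD of the log2 deviation 0.24, against a line median of 0.10). With the error of this pair of sgRNAs taken over all compounds, an estimate added after the values were seen, the adjusted p was 0.088. Without pairing by well it was 0.0497, just past the threshold, and after subtraction of swapped reads the difference was 67.1 (adjusted p = 0.032).

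The other 11 differences between sgKEAP1 and sgNFE2L2 did not pass. Under BardoxoloneMethyl they were 31.7 in BT-20 (39.6 and 23.7, adjusted p = 0.21), 17.7 in MDA-MB-231, 13.5 in SKBR3 and -15.3 in HCC-38. With Parthenolide they were -47.2 in SKBR3 (-58.1 and -36.3, adjusted p = 0.23), 49.2 in MDA-MB-231, 10.3 in BT-20 and 1.56 in HCC-38. After subtraction of swapped reads the Parthenolide values in BT-20 and HCC-38 were 28.1 and -23.4, so the sign in HCC-38 turned (adjusted p = 0.69 and 0.63). For DimethylFumarate the remaining values were -23.8 in MDA-MB-231, -15.0 in BT-20 and -13.4 in SKBR3. At an unadjusted p under 0.05 limma gave 1 further difference each for BardoxoloneMethyl (BT-20) and Parthenolide (SKBR3). Whether the HCC-38 difference under DimethylFumarate differs from that in the other lines was not tested.

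The other sgRNAs were described in the groups of the library, and 0 pairs passed in any group. The heat shock group holds HSF1, the main activator of chaperone genes, and HSF2, and its 9 pairs had median differences of 1.77 (BardoxoloneMethyl), -0.23 (DimethylFumarate) and -0.12 (Parthenolide) AUC points. Under BardoxoloneMethyl sgHSF1 had 1 of its 4 pairs at an unadjusted p under 0.05, and its differences ran from -18.4 to 3.801. The unfolded protein response group holds the sensor IRE1 (ERN1), its target XBP1, and the transcription factors ATF3, ATF4 and ATF6. Its 25 pairs had medians of 1.44, 0.73 and 1.07 for the 3 compounds in the same order, with 15, 14 and 13 pairs above the line median. ATG7, needed for the lipidation step of autophagy, gave differences of -15.3 to 10.5, -8.44 to 20.7 and -22.9 to 9.26. The median over all 58 pairs was 0.96, 0.89 and 0.44. The medians farthest from these were those of the 10 control pairs under Parthenolide (-11.1) and DimethylFumarate (8.30) and of the 9 oxidative stress pairs (sgKEAP1 and sgNFE2L2) under BardoxoloneMethyl (-6.16).

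The farthest single sgRNAs by AUC were mostly controls. For BardoxoloneMethyl these were sgNT in BT-20 (117.5 and 125.6 where the medians were 154.7 and 140.7, difference -26.1, adjusted p = 0.33) and sgSLC35F2 in MDA-MB-231 (176.8 and 183.8 with medians of 153.9 and 147.7, difference 29.6, adjusted p = 0.48). SLC35F2 is a solute carrier and served as a control of the library. With Parthenolide they were sgSLC35F2 in ZR-75-1 (-54.4, adjusted p = 0.53) and sgNT in MDA-MB-231 (55.1, with replicate differences of 96.7 and 13.6, adjusted p = 0.34). For DimethylFumarate both were sgKEAP1, at -22.7 in MDA-MB-231 and 42.4 in HCC-38. A control guide thus lay as far from its median as any pathway knockout under BardoxoloneMethyl and Parthenolide.

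Curcumin, a plant diphenol that is also an electrophile, is listed with the same target, Keap1-Nrf2, and was given at the same doses. It was lower than DMSO in 3 of 20 combinations, all at 10000 nM: HCC-38 at 68.1% and 92.2% (log2 -0.37, limma adjusted p = 0.00091), MDA-MB-231 at 71.8% and 90.3% (adjusted p = 0.0015) and SKBR3 at 74.7% and 85.1% (adjusted p = 0.0053). Replicate 1 was the lower well in all 5 lines and had 76974 reads, against 342703 or more in the other 7 Curcumin wells. At the same dose BardoxoloneMethyl was at 2.9% to 8.0%, DimethylFumarate at 83.7% to 103.03% and Parthenolide at 98.5% to 118.7%. For sgKEAP1 against sgNFE2L2, Curcumin gave 40.05 in HCC-38 (adjusted p = 0.0099, and 0.44 with the error over all compounds) and -69.7 in BT-20 (adjusted p = 0.0062, and 0.0037), in opposite directions. Over all compounds 24.4% passed as higher in HCC-38 and 8.72% as lower in BT-20. Against the line median, 1 of the 58 Curcumin pairs passed by AUC, where 1.11% passed over all compounds. It was an sgNFE2L2 pair at 47.7 points (limma adjusted p = 0.041), which also passed with the error over all compounds.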

How the data were processed

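Per the labels, pooled lines were lysed with spiked-in standards, and barcodes were amplified by PCR and sequenced. The deposited unit is the count of reads per well for 126 barcode pairs, demultiplexed with bcl2fastq and neither aligned nor normalized. A second table deposited by the authors holds, for 174 compounds, a ratio (times 100), the relative cell number, of the interpolated cell number to the median DMSO value of the same line and sgRNA.

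The ratios were derived again here with a log10-log10 regression of reads on cells over the 5 standards of each well and the 96 DMSO wells as the denominator. The results differed from the 83520 deposited values by at most 5.3e-05 on the log2 scale. Left out, as in the methods of the study, were 6 compounds with low read totals, sgKEAP1 and sgHSF1 of ZR-75-1 and, in AUC fits, 2 compounds with an AUC over 550. Over the dose range used here 162 compounds had values, and 172 entered the AUC fits. The criteria of the methods that drop a line-compound combination with a weak response (at the top dose sgNT still at 90% or above, or a fall of under 25 percentage points) were used only as an alternative, since they keep DimethylFumarate in 1 line and Parthenolide in 0.

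Log2 line values with precision weights by level, AUC differences and log2 deviations of sgRNAs were tested with limma 3.58.1 in R 4.3.3, with Benjamini-Hochberg adjustment over all compounds at 0.05, and reads of each sgRNA with edgeR 4.0.16. Tables were made in Python 3.11.15. All fits were tested on simulated data. For the sgRNA AUC fit these were drawn without noise shared within a well. It missed most changed sgRNAs and made false calls in the more variable pairs. An error per line-sgRNA pair over all compounds was therefore added after the data were seen. A permutation of 2 against 2 wells cannot go below p = 0.333, and one of 2 against 96 wells has 4753 arrangements. The lines of a replicate share a well: over 172 compounds the replicate differences in AUC of 2 lines correlated by 0.42 to 0.73 (median 0.59). Swapped reads were estimated from 41 barcode pairs that were never made.

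The compounds, gene groups and comparisons were chosen with earlier results of these data known. sgKEAP1 and sgNFE2L2 are always named. Other sgRNAs are named where they passed, or else the highest and the lowest AUC difference per compound. The plate of a compound well is not given in the sources used here, and counting errors cover reads only. In the labels, DMSO wells of the same plate share their dose level and replicate number. If compound wells follow that layout, differences between doses or replicates cannot be told apart from differences between plates.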

Additional observations from a re-analysis of the deposited data

Results flagged for a closer look

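Differences between cell lines under the same compound passed a test of the difference itself for BardoxoloneMethyl. Against the average of the remaining 4 lines, the AUC difference was -37.7 points in ZR-75-1 and 34.8 in HCC-38. At 100 nM ZR-75-1 differed by log2 -0.71 and HCC-38 by 0.45, and at 1000 nM SKBR3 differed by -0.57, MDA-MB-231 by -0.44 (-0.02 with sgNT alone) and HCC-38 by 0.76. Over all compounds 21.7% of the line differences by AUC and 16.2% of those by dose passed. With sgNT alone none of the differences listed here passed. Reads per well at 1000 nM were 136159 and 45763, and the part of depth in these differences was not tested.

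Between knockouts, the AUC of sgKEAP1 exceeded that of sgNFE2L2 in HCC-38 under DimethylFumarate by 62.3 points, the 1 of 12 combinations that passed, against 9.01% over all compounds. In that line 24.4% of all compounds passed in the same direction, with a median difference of 23.3 points, and with the error taken over all compounds the adjusted p in limma was 0.088.

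Barcode pairs that were never made took 1.11% of the reads in replicate 1 of Parthenolide at 100 nM, above the highest of the 96 DMSO wells, 0.92%.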

How the results depend on the processing

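No result past the threshold changed direction under an alternative, and BardoxoloneMethyl had 10 (sgNT alone) to 13 of 20 line-dose combinations below DMSO. Under BardoxoloneMethyl, sgNT alone gave 0 lines by AUC and 0 line-dose combinations in place of 2 and 5, and the replicate block gave 4 and 8. For the levels against DMSO the replicate block left 13, 0 and 0 calls. With the error of each line-sgRNA pair over all compounds, the call for sgKEAP1 against sgNFE2L2 under DimethylFumarate was lost (0 in place of 1). Leaving out 1 replicate, DimethylFumarate had 0 to 2 combinations below DMSO (MDA-MB-231 at 10 nM and SKBR3 at 1000 nM without replicate 2) and 0 to 2 differences from Parthenolide (MDA-MB-231 at 10 nM and BT-20 at 100 nM without replicate 2). Without precision weights 1 deviation of sgNFE2L2 passed under BardoxoloneMethyl, in MDA-MB-231 at 10000 nM (log2 -0.75, adjusted p = 0.042). The cause of these changes was not tested.

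Over all compounds, 21.7% of line AUC differences passed, against 1.40% with sgNT alone and 39.1% with the replicate block, and 16.2% of line differences by dose, against 4.42% and 26.8%. The share of sgRNA AUC calls, 1.11%, became 0.241% after subtraction of swapped reads and 0.2005% without the block. That of sgKEAP1 against sgNFE2L2, 9.01%, became 2.62%, 3.34% and, with the error over all compounds, 5.81%, and that of sgRNA deviations by dose, 0.0718%, became 0.357% without weights and 0.0471% after subtraction. Of the sgRNA AUC calls 81.98% were higher, against 64.5% with sgNT as the reference, 64.05% on the log2 scale, 58.3% after subtraction and 42.3% in edgeR, and of those by dose 93.1%, against 36.1% without weights. For sgKEAP1 against sgNFE2L2 it was 70.97%, against 82.6% without the block and 50% with the error over all compounds. With 2 wells per dose, the unadjusted 95% intervals of sgRNA AUC differences were wide. Their half-widths were at least 15.9 points with BardoxoloneMethyl, 23.03 with DimethylFumarate and 26.7 with Parthenolide. After adjustment larger differences failed as well, up to 55.1 points under Parthenolide.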
